A study of Homo sapiens with 2 samples.

Results

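The epicardial-like cells described here are 408 of 21623 cells from day 15 cardiomyocyte cultures, chosen by their measured transcripts of WT1, BNC1, SMOC2, PTGIS and ASPHD1 and by a low level of cardiomyocyte RNA. A cell was taken when it held at least 3 transcripts (UMIs, unique molecular identifiers) over these 5 genes, with at least 2 of the genes detected. In addition, its summed level of 12 cardiomyocyte genes (TNNT2, ACTN2, TTN, TNNC1, MYL4, MYL7, MYBPC3, NEBL, TNNI1, MYOM1, LDB3 and SMPX) had to lie under 20000 CPM, that is, counts per 1000000 gene UMIs. The 408 cells made up 1.89% of all cells past the quality filter (95% exact interval, 1.71% to 2.08%).

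The study drew on H9, an established human embryonic stem cell line, carrying the gCaMP6f fluorescent calcium reporter in all cells. Cardiomyocytes differentiated from it were frozen at day 15, thawed, stained with hashtag antibodies and combined into 1 pool. A gene expression library and a hashtag library were made from that pool. The cultures belong to work on how the mixture of cells in such preparations relates to arrhythmia after grafting.

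All cells came from 1 pool and are no replicates of one another, so a test across samples could not be made and no p-value is given. Intervals are exact 95% intervals for counting error alone. The 408 cells held 6056268 UMIs, 1081 to 48052 per cell with a median of 13384.5, and a median of 2.32% of their UMIs were mitochondrial. They were set against 18247 cardiomyocytes (20000 CPM or more of the 12 genes, without the 5-gene condition), 947 stromal cells and 689 epithelial cells, with median depths of 12509, 10378 and 14496 UMIs. Stromal cells were those under the cardiomyocyte limit with at least 5 UMIs of the collagen gene COL3A1. Cells that met the epithelial condition, given next, were left out of the stromal group. Epithelial cells, under the same limit, had at least 3 UMIs over EPCAM, GATA3 and CLDN4, with at least 2 of these detected. Neither of these last groups included any of the 408 cells. The 12 cardiomyocyte genes, which the rule used, summed to 4996 CPM in the epicardial-like cells, to 5492 CPM in the stromal and to 4441 CPM in the epithelial cells, against 43456 CPM in cardiomyocytes.

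The epicardium is the mesothelial sheet that covers the heart. In development it arises from the proepicardium, expresses the transcription factors WT1, TBX18 and TCF21, and makes retinoic acid through the enzyme ALDH1A2. Some of its cells lose their epithelial junctions, enter the heart wall and become fibroblasts and vascular smooth muscle, and the sheet also secretes growth factors that act on the myocardium.

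WT1, a zinc finger factor needed for the formation of the epicardium, had 601 UMIs in the 408 cells, or 99.2 CPM, and was detected in 259 of them. BNC1, another zinc finger factor, stood at 82.9 CPM with 265 cells. SMOC2, which encodes a secreted calcium-binding matrix protein, stood at 115 CPM with 273 cells. PTGIS, the prostacyclin synthase, stood at 119 CPM with 291 cells, and ASPHD1 at 74.8 CPM with 262 cells. These 5 genes chose the cells, so their levels are a description only. Each was missing from 117 or more of the 408 cells, and 77 cells carried all 5 of them. The sum over the 5 genes ran from 3 to 30 UMIs per cell, with a median of 6.

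The 250 bases before the start sites of WT1, TCF21 and TBX18 are shown because these factors are used here as markers of the cells. WT1 is in the rule, and TCF21 and TBX18 are markers outside it. The sequences are RefSeq windows on GRCh38.p14, each on the strand of its gene, and capitals mark a core of the GC box (GGGCGG or, on the other strand, CCGCCC). WT1 lies on the minus strand of chromosome 11 with its window at chr11:32435540-32435789. TCF21 lies on the plus strand at chr6:133888863-133889112, and TBX18 on the minus strand at chr6:84764599-84764848.
WT1: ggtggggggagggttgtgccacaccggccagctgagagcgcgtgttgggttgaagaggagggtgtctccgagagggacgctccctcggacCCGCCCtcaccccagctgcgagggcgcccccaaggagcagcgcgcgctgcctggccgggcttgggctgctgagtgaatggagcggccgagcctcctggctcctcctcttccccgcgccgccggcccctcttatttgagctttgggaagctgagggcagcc
TCF21: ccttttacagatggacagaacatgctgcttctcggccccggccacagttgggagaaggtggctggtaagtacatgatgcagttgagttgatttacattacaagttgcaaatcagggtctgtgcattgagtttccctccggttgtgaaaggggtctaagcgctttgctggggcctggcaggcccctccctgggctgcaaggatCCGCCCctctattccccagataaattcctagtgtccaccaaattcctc
TBX18: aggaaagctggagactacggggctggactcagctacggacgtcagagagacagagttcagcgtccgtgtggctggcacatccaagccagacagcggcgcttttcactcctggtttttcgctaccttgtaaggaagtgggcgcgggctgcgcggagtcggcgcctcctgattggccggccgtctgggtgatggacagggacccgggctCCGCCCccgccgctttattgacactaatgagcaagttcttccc
WT1 has 4 RefSeq start windows, of which the most upstream is shown, and the other 3 hold no GC box core. Each window shown held 1 match to it, which 42.6% of 35116 RefSeq promoter windows of this length hold. The GATA core AGATAA, searched on both strands, occurred once in the TCF21 window and not in the other windows shown, and 9.17% of all windows hold it. A match describes the letters and is not a measured binding site.

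The start of the antisense transcript WT1-AS, on the plus strand, lies 21 bases from this WT1 start. WT1-AS had 86 UMIs in the epicardial-like cells, or 14.2 CPM, against 0.117 CPM in cardiomyocytes and 2.91 CPM in stromal cells, and none was counted in epithelial cells. It was detected in 23.2% of the 259 cells with WT1 and in 6.04% of the 149 without it. The sources used here do not say whether counting kept the strand, so reads of WT1 and of its antisense partner may not be told apart where they overlap. At TCF21, the antisense gene TARID starts 107 bases away, but only 4 of its UMIs were in the epicardial-like cells, against 27 in stromal cells.

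Genes of the epicardium that the rule did not use were high in the same cells. TBX18 (chromosome 6, 84687351 to 84764519, hg38), a T-box factor of the proepicardium, stood at 138 CPM (128 to 147) against 8.68 CPM in cardiomyocytes, 16.6 CPM in stromal and 2.74 CPM in epithelial cells. Its level was therefore 15.8-fold that of cardiomyocytes (14.6 to 17.2) and 8.27-fold that of stromal cells (7.02 to 9.78). TCF21 (chromosome 6, 133889138 to 133895553), a basic helix-loop-helix factor of fibroblast progenitors, stood at 121 CPM (112 to 130), 59.4-fold the 2.03 CPM of cardiomyocytes. Stromal cells held 79.5 CPM of TCF21, so that the ratio to them was 1.52 (1.37 to 1.68), just past the 1.5-fold limit used here. It fell short of that limit without hashtag 1, 2 or 7, and its log2 ratio was 0.13 in place of 0.60 in cells given to 1 hashtag. It also fell short with at least 2 rule UMIs (0.35), with the mean of CPM over cells (0.46), with a lower cardiomyocyte limit (0.47), without SMOC2 in the rule (0.57) and with a stricter quality filter (0.58). The ratio to stromal cells was larger for TBX18 than for TCF21, which both groups held.

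ALDH1A2 (chromosome 15, 57953424 to 58497866), the enzyme that makes retinoic acid from retinal, stood at 81.9 CPM (74.8 to 89.4). Cardiomyocytes held 0.647 CPM of it, stromal cells 5.08 CPM and epithelial cells 1.74 CPM. The 408 cells carried 57.4% of all ALDH1A2 UMIs in the filtered library. Genes of the mesothelial surface were also concentrated there. ITLN1, which encodes the lectin omentin, stood at 53.2 CPM against 0.178 CPM in cardiomyocytes, with 75.9% of its UMIs in these cells. UPK3B, a uroplakin, stood at 25.1 CPM against 0.053 CPM, with 71.0% of its UMIs. These 2 genes were patchy: ITLN1 was detected in 90 of the 408 cells and UPK3B in 96, whereas TBX18 was detected in 248.

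Of 17 such markers outside the rule, 10 reached the level at which a gene counted as measured, namely at least 10 CPM and 10 UMIs on the higher side. Ratios of 1.5 or more, either way, counted as higher or lower. Against cardiomyocytes, 9 of the 10 were higher and none lower, where 23.2% of all 9360 measured genes were higher and 16.1% lower. Against stromal cells, 9 were higher and none lower, where 6.53% of 9386 genes were higher and 9.09% lower. Against epithelial cells, 8 were higher and 1 lower, where 11.8% of 9490 genes were higher and 11.1% lower. SEMA3D, a guidance cue of the proepicardium, was the lower gene, at 41.6 CPM against 89.9 CPM, and it did not pass the limit against stromal cells, at 39.9 CPM. MSLN, which encodes the mesothelial antigen mesothelin, had 1 UMI in the 408 cells, and PRG4 had 0, which allows up to 0.495 CPM.

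**Figure D1:**
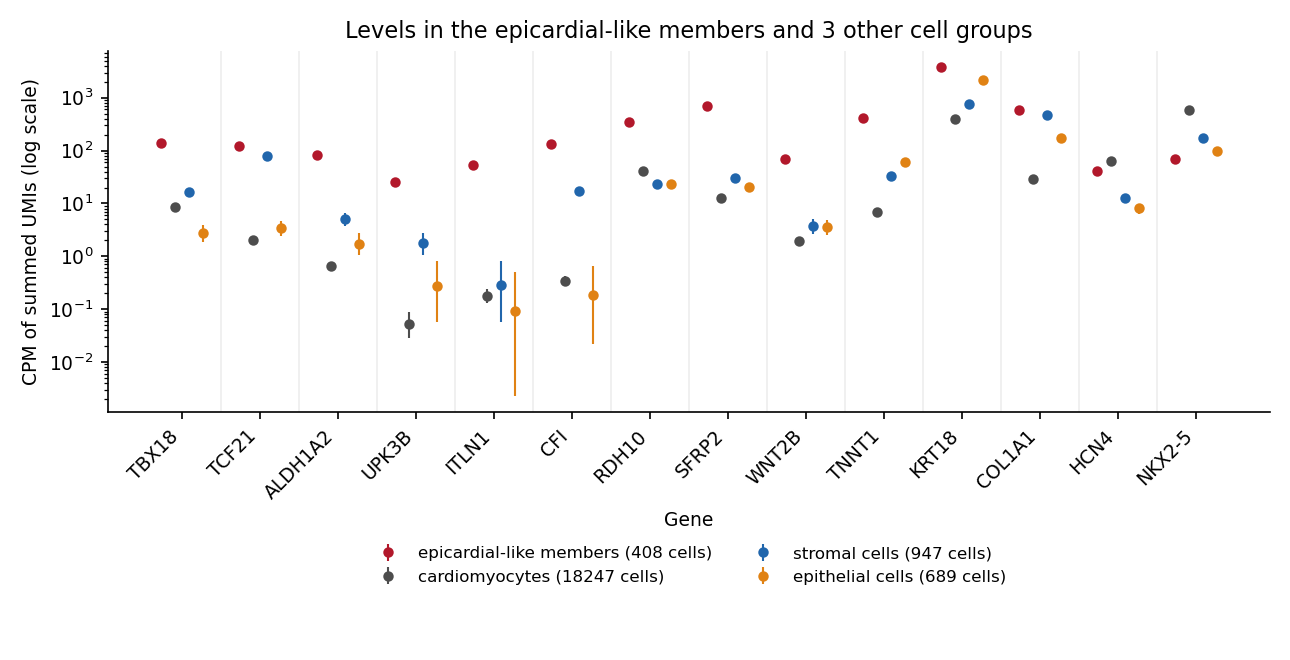
Levels of 14 genes as CPM of summed UMIs (log scale) in the epicardial-like cells, called members in the key, and in cardiomyocytes, stromal and epithelial cells, with exact 95% Poisson intervals as bars. TBX18, TCF21, ALDH1A2, UPK3B, ITLN1, CFI, RDH10, SFRP2, WNT2B, TNNT1, KRT18 and COL1A1 are highest in the epicardial-like cells, while HCN4 and NKX2-5 are highest in cardiomyocytes.

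Since shares of cells with a UMI move with depth, each cell was also thinned to 3000 UMIs, which left out 6 of the 408 cells. TBX18 was then detected in 31.3% of 402 epicardial-like cells (60.8% before thinning), against 2.17% of cardiomyocytes and 4.67% of stromal cells. TCF21 was detected in 27.4% (48.3% before thinning), against 0.471% and 14.9%. ALDH1A2 was detected in 20.4% (42.9% before thinning), against 0.232% and 1.67%. Cardiomyocytes should lack TCF21 and ALDH1A2, so their share is given as a background level, and its source was not tested.

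Of the factors outside the rule, TCF21 was detected in 61.3% of the epicardial-like cells with TBX18 and in 28.1% of those without, with median depths of 13511 and 12902 UMIs. TBX18 was detected in 74.5% of the 259 cells with WT1 and in 36.9% of the 149 without, and TCF21 in 58.7% and 30.2%. WT1 is a rule gene, so cells without it entered by the other rule genes, and these shares are a description only.

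The limit of 3 UMIs cut through a gradient. In cells under the cardiomyocyte limit with 0, 1 and 2 UMIs over the 5 genes (the last on 2 genes, 117 cells just outside the rule), TBX18 stood at 7.37, 11.7 and 32.3 CPM. In the 83 epicardial-like cells with 3 UMIs, just inside, it stood at 28.5 CPM, so that cells on either side of the limit were alike in TBX18. It stood at 65.9 CPM in the 64 cells with 4 UMIs, at 157 CPM in the 155 with 5 to 9 and at 221 CPM in the 106 with 10 or more. ALDH1A2 went from 11.6 CPM just outside and 17.6 CPM just inside to 140.3 CPM in the last of these, and TCF21 from 44.6 and 57.0 CPM to 162 CPM. The collagen gene COL3A1 ran the other way inside the rule, from 1169 CPM at 3 UMIs to 598 CPM at 10 or more. Depth did not step in the same way up to 9 UMIs (medians 11724 just outside, 12838, 12191 and 12841), but was 16733 UMIs in the last group, where more UMIs of any gene are counted per cell. At the other limit, 27 epicardial-like cells with 15000 CPM or more of the cardiomyocyte genes held TBX18 at 110.4 CPM. Just beyond it, 15 cells that met the 5-gene condition at 20000 to 25000 CPM held 76.1 CPM.

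**Figure D2:**
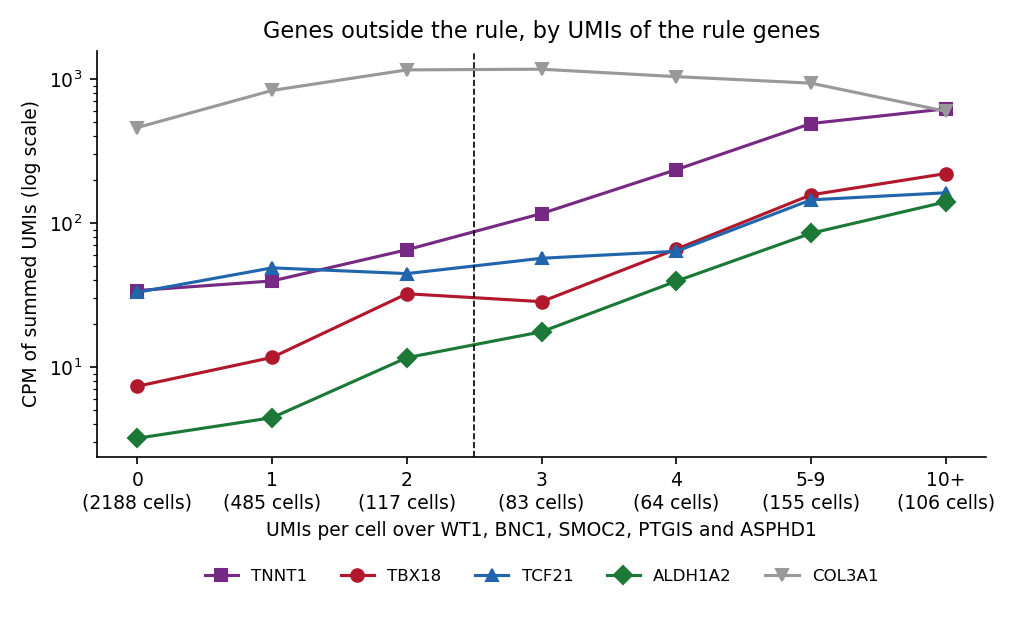
CPM of summed UMIs (log scale) of 5 genes outside the rule, by the number of UMIs a cell carried over the 5 rule genes, for cells under the cardiomyocyte limit; the dashed line marks the rule, with 117 cells just outside and 83 just inside. TBX18, ALDH1A2, TCF21 and TNNT1 are highest at 10 or more UMIs, and COL3A1 is lower there than at 3.

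Some barcodes may hold more than 1 cell. Of the 408 cells, 144 (35.3%) could be given to 1 hashtag, compared with 47.7% of all cells, 47.8% of cardiomyocytes and 53.9% of stromal cells. Among 83 further cells that met the 5-gene condition at or over the cardiomyocyte limit, 20.5% could, and their median depth was 27976 UMIs. In the 144 cells of 1 hashtag alone, TBX18 stood at 112 CPM, TCF21 at 105 CPM and ALDH1A2 at 68.1 CPM, so the markers were present in them as well. These 3 genes were higher in the 264 cells given to no single hashtag, at 152, 130 and 89.6 CPM. The part that doublets take in the other values was not tested.

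Markers of other cell types were mixed. PAX2 and PAX8, which mark kidney progenitors, were at 0, as were NR5A1 and EMX2 of the gonad and SOX10 of the neural crest. Other genes of these lists were counted. The 9 kidney and podocyte markers, 3 of them at 0, summed to 21.3 CPM, against 28.0 CPM in cardiomyocytes and 20.2 CPM in stromal cells. The 7 gonad markers, 2 of them at 0, summed to 43.8 CPM. Their sum was 44.9 CPM in cardiomyocytes, 55.7 CPM in stromal and 24.8 CPM in epithelial cells. The 8 neural and neural crest markers still summed to 30.2 CPM, against 3.64 CPM in cardiomyocytes and 139 CPM in stromal cells, mainly from STMN2, a neuronal microtubule regulator, with 170 UMIs in 28 cells. The 6 pluripotency markers summed to 25.9 CPM, against 12.1 CPM in cardiomyocytes and 20.9 CPM in stromal cells. The endothelial markers CDH5 and PECAM1 had 5 and 3 UMIs, and the sum of the 8 endothelial markers, 77.3 CPM, came mainly from EGFL7 at 62.7 CPM (38.0 CPM in cardiomyocytes, a ratio that fell short of the limit without hashtag 12 and, with a log2 of 0.45 in place of 0.72, with trimmed mean scaling). By contrast NPHS1, the slit diaphragm gene nephrin, had 29 UMIs, 1 in each of 29 cells. Its level was 4.79 CPM, against 0.045 CPM in cardiomyocytes and 0.376 CPM in stromal cells, and the 408 cells held 50.0% of its UMIs. Sums of the 8 endoderm markers and of the 8 markers of WFDC2 and CLDN4 epithelium came to 151 and 156 CPM, against 577 and 995 CPM in epithelial cells. The endoderm signal sat in few cells. AFP, the fetal serum protein of liver and yolk sac, had 475 UMIs, of which 429 were in 1 cell. Without hashtag 7 its log2 ratio to cardiomyocytes turned from 1.51 to -1.87. Besides, 29 of the 408 cells met the condition used for epithelial cells, and in these TBX18 stood at 21.0 CPM.

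The step before ALDH1A2 was higher as well. RDH10, which oxidises retinol to the retinal that ALDH1A2 uses, stood at 347 CPM (332 to 362), against 41.2 CPM in cardiomyocytes and 22.8 CPM in both stromal and epithelial cells. It was thus 8.43-fold the level of cardiomyocytes (8.04 to 8.83) and 15.2-fold that of stromal cells (13.3 to 17.4). RARRES2, the chemerin gene and a retinoid-responsive gene, stood at 68.2 CPM against 5.88 CPM in cardiomyocytes and 22.8 CPM in stromal cells. Epithelial cells were closer in RARRES2: after thinning it was detected in 16.9% of the epicardial-like cells (13.4% to 20.9%) and 13.5% of epithelial cells (11.1% to 16.4%). Some other genes of retinoid handling did not share the higher levels of RDH10 and RARRES2. CRABP2, which carries retinoic acid to its receptors, stood at 393 CPM against 750.3 CPM in stromal cells, and RXRG, a retinoid receptor of cardiomyocytes, at 13.7 CPM against 87.0 CPM in cardiomyocytes. The whole retinoic acid list holds RDH10, RARRES2, CRABP2 and RXRG but not ALDH1A2. Of its genes, 5 of 11 measured were higher and 1 lower than in cardiomyocytes (23.2% and 16.1% of all measured genes). Against stromal cells, 2 of 12 were higher and 5 lower (6.53% and 9.09% of all).

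WNT signalling genes were among the largest differences in the list of secreted signals. SFRP2, a secreted antagonist of WNT, stood at 695 CPM (675 to 717), against 12.7 CPM in cardiomyocytes, 30.0 CPM in stromal and 20.8 CPM in epithelial cells. It was 23.2-fold the stromal level (20.7 to 26.1). Its relative SFRP5 stood at 208 CPM against 9.53, 28.2 and 7.31 CPM. WNT2B, a WNT ligand, stood at 69.0 CPM against 1.91, 3.67 and 3.56 CPM. DKK1, another WNT antagonist, was lower than in stromal cells, at 20.0 against 82.8 CPM. SFRP2 was uneven between cells: 257 of the 408 cells had a UMI, the median cell stood at 208 CPM and the highest at 8522 CPM.

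IGF2, the growth factor by which epicardium acts on embryonic myocardium, stood at 80.9 CPM, 35.6-fold the 2.27 CPM of cardiomyocytes (31.5 to 40.2) and 1.51-fold the 53.6 CPM of stromal cells (1.34 to 1.71). The ratio to stromal cells fell short of the limit without hashtag 1, 2, 4, 6, 7 or 15, with a log2 of 0.51 to 0.58 in place of 0.59. It also fell short with a lower cardiomyocyte limit (0.46), at least 5 rule UMIs (0.56), without SMOC2 in the rule (0.57), and with cell means and a stricter quality filter (both 0.58). Its imprinted neighbour H19 stood at 442 CPM against 40.0 and 261 CPM. FGF9, also known as an epicardial signal, was not different by this rule from cardiomyocytes or stromal cells, at 10.4 CPM against 10.7 and 9.50 CPM. Of the secreted signals, 23 of 45 measured were higher and 13 lower than in cardiomyocytes, where 23.2% of all measured genes were higher and 16.1% lower. Against stromal cells, 12 of 44 were higher and 15 lower, where 6.53% of all genes were higher and 9.09% lower. Among receptors, the surface protein CD200 stood at 71.2 CPM against 4.24 CPM in cardiomyocytes and 25.8 CPM in stromal cells. Beside the same shares, 17 of 32 receptors were higher and 4 lower than in cardiomyocytes, whereas 4 of 35 were higher and 11 lower than in stromal cells.

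Keratins of simple epithelia were higher than in cardiomyocytes and stromal cells, and differed in direction against epithelial cells. KRT18 stood at 3737 CPM, against 400.2 CPM in cardiomyocytes, 768 CPM in stromal and 2148 CPM in epithelial cells. Its partner KRT8 stood at 2595 CPM against 401, 702 and 1631 CPM, the last a ratio that fell short of the limit in cells given to 1 hashtag and with at least 2 rule UMIs. KRT19, by contrast, stood at 452 CPM against 238 and 233 CPM in cardiomyocytes and stromal cells but 831 CPM in epithelial cells, and KRT7 at 6.93 against 22.9 CPM in epithelial cells. PODXL, the anti-adhesive sialomucin podocalyxin, stood at 197 CPM, 11.7-fold the level of cardiomyocytes (10.95 to 12.46) and 6.84-fold that of stromal cells (6.03 to 7.78). EZR, which encodes ezrin and links membrane proteins to actin, stood at 999 CPM against 269 CPM in stromal cells. SLC9A3R1, the scaffold between PODXL and ezrin, was looked up after the values of these 2 were seen and stood at 318 CPM against 10.2 CPM in cardiomyocytes and 47.6 CPM in stromal cells.

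Junction genes differed in direction against epithelial cells. CDH1, which encodes E-cadherin, was 8.27-fold lower than in epithelial cells (6.62 to 10.5), at 13.7 against 113 CPM, and was detected in 39 of the 408 cells. CLDN3, a tight junction claudin, stood at 3.30 against 85.3 CPM. CDH3, which encodes P-cadherin, did not pass the limit, at 72.8 against 65.1 CPM, and PARD6B, a polarity gene, was higher, at 109.6 against 52.2 CPM. CDH2, which encodes N-cadherin, had a UMI in 336 of the 408 cells and stood at 208 CPM against 391 CPM in cardiomyocytes and 336 CPM in stromal cells. CRB2, another polarity gene, stood at 61.3 CPM against 10.9 CPM in epithelial cells. Of the epithelial and junction list, 14 of 21 measured were higher and 1 lower than in stromal cells (6.53% and 9.09% of all measured genes). Against epithelial cells, 6 were higher and 8 lower (11.8% and 11.1% of all). The stromal group left out cells that met the epithelial condition, whereas 29 of the 408 cells met it. The choice of groups therefore bears on the count against stromal cells, from which EPCAM and CLDN4 were not left out. An alternative chosen after seeing the data left out 33 cells that met the epithelial condition or held 5 or more UMIs over 4 endoderm genes. Without these 33 cells, 10 of 18 were higher and 2 lower than in stromal cells, where 629 and 945 of all 9391 measured genes were.

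Collagens and other mesenchymal genes were present beside the keratins. COL1A1, the chain of type I collagen, stood at 586 CPM, 20.1-fold the 29.2 CPM of cardiomyocytes (19.3 to 20.9), and at 1.24-fold the 473 CPM of stromal cells, which is not past the limit. DCN, the proteoglycan decorin, stood at 150 CPM against 1.63 and 55.8 CPM. TNC, the matrix glycoprotein tenascin C, stood at 165 CPM against 2.28 and 45.7 CPM. After thinning, DCN was detected in 21.4% of the epicardial-like cells (17.5% to 25.7%) and 16.6% of epithelial cells (13.9% to 19.7%). For TNC these shares were 25.1% and 6.77%. Other matrix genes were lower than in stromal cells. POSTN, which encodes periostin, stood at 29.2 against 80.2 CPM, 2.74-fold lower (2.33 to 3.24), and COL6A3, a chain of type VI collagen, at 39.1 against 105 CPM. Of the fibroblast and mesenchyme list, 22 of 23 measured were higher and 1 lower than in cardiomyocytes (23.2% and 16.1% of all measured genes). Against stromal cells, 3 were higher and 10 lower (6.53% and 9.09% of all). COL3A1 itself defined the stromal cells and was left out of the count against them.

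The basement membrane showed a split of the same kind. LAMC1, a laminin chain, stood at 283 CPM against 78.3 CPM in stromal and 73.9 CPM in epithelial cells, and FRAS1, a protein of embryonic epithelial basement membranes, at 64.1 CPM against 15.8 CPM in stromal cells. FREM1, a related protein, was lower, at 5.78 against 19.7 CPM in stromal cells. Over the list, 5 of 23 measured were higher and 8 lower than in stromal cells, where 6.53% of all measured genes were higher and 9.09% lower. Of 12 smooth muscle and pericyte genes measured, none was higher than in stromal cells and 4 were lower, beside the same shares, and the median ratio was 0.984. MYLK, the myosin light chain kinase of smooth muscle, was 13.3-fold lower than in stromal cells (7.64 to 25.2), on 13 UMIs against 303. ACTA2, smooth muscle actin, stood at 291 against 749 CPM and PDGFRB, the pericyte receptor, at 13.4 against 36.3 CPM. TAGLN and TPM2, an actin-binding protein and a tropomyosin, did not pass the limit, at 1160.1 against 889 CPM and 805 against 549 CPM. TPM2 was past it with trimmed mean (TMM) scaling, cell means, a lower cardiomyocyte limit, at least 5 rule UMIs (log2 0.73 in place of 0.55), without the 33 cells, and without hashtag 3, 5, 9, 10 or 15.

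The listed transcription factors set the cells apart from stromal cells mainly by lower levels. That list leaves out the rule genes WT1 and BNC1, and also TBX18 and TCF21, which stood higher than in stromal cells. ISL1, a factor of the second heart field, stood at 24.8 against 88.8 CPM, 3.58-fold lower (3.01 to 4.29). TBX2 stood at 18.3 against 63.9 CPM, and ZEB2, a factor that represses epithelial genes, at 57.1 against 165 CPM. Of 27 listed factors measured, 2 were higher and 15 lower than in stromal cells (6.53% and 9.09% of all measured genes). GATA4, needed for formation of the proepicardium, did not pass the limit against cardiomyocytes (98.7 CPM) or stromal cells (71.4 CPM), at 87.5 CPM, and was 6.34-fold the 13.8 CPM of epithelial cells (5.28 to 7.65). NKX2-5, the cardiomyocyte homeobox factor, stood at 68.2 CPM against 583 CPM in cardiomyocytes, 176 CPM in stromal and 99.4 CPM in epithelial cells. PRRX1 and SNAI2, factors of mesenchyme, were higher than in cardiomyocytes, at 24.1 against 1.68 CPM and 17.8 against 2.27 CPM.

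Among muscle genes, TNNT1 went against most of the others. TNNT1 (chromosome 19, 55132794 to 55149354), the troponin T of slow skeletal muscle, stood at 419 CPM (402 to 435), 60.8-fold the 6.89 CPM of cardiomyocytes (57.2 to 64.6). It stood at 33.6 CPM in stromal and 61.9 CPM in epithelial cells. After thinning it was detected in 54.5% of the epicardial-like cells (76.5% before), against 2.14% of cardiomyocytes, and the 408 cells held 42.2% of its UMIs. Over the same gradient of rule UMIs it went from 65.3 CPM just outside and 116 CPM just inside to 621 CPM at 10 or more. ACTC1, cardiac actin, stood by contrast at 754 against 8103 CPM in cardiomyocytes, and MYL2, the ventricular light chain, at 0.826 against 17.9 CPM. Of 12 other muscle isoforms measured, 2 were higher and 10 lower than in cardiomyocytes (23.2% and 16.1% of all measured genes).

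Ion channel genes were mixed. HCN4 (chromosome 15, 73319859 to 73369264), the main pacemaker channel, stood at 40.9 CPM (36.0 to 46.4), below the 63.9 CPM of cardiomyocytes and 3.23-fold the 12.7 CPM of stromal cells (2.61 to 4.01) and 5.09-fold the 8.04 CPM of epithelial cells (3.98 to 6.57). With 5 or more rule UMIs required, the log2 ratio of HCN4 to cardiomyocytes was -0.34 in place of -0.64, short of the limit. It was also short of it without ASPHD1 (-0.54) or SMOC2 (-0.57) in the rule and without the 33 cells described above (-0.52). After thinning, HCN4 was detected in 11.2% of the epicardial-like cells (38.2% before), against 18.2% of cardiomyocytes and 2.45% of stromal cells. KCNMA1, the calcium-activated BK potassium channel, stood at 57.0 CPM against 0.844 CPM in cardiomyocytes and 13.7 CPM in stromal cells. KCNJ3, a subunit of the acetylcholine-activated channel, stood at 12.5 against 5.08 CPM in stromal cells, and GJA1, which encodes connexin 43, at 105 CPM against 32.4 and 58.9 CPM in cardiomyocytes and stromal cells. In cells given to 1 hashtag the GJA1 ratio to stromal cells fell short of the limit. PLN, the brake on calcium reuptake, was 6.05-fold lower than in cardiomyocytes (5.69 to 6.43). Of 19 genes of excitability and coupling, 3 were higher and 14 lower than in cardiomyocytes (23.2% and 16.1% of all measured genes). Of 17 measured against stromal cells, 3 were higher and 5 lower (6.53% and 9.09% of all).

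Outside the lists, PLAC9 had the largest ratio to cardiomyocytes among protein-coding genes at 50 CPM or more, at 385 against 0.711 CPM. ALKAL2, a ligand of the receptor ALK, stood at 69.7 CPM against 0.212 CPM in cardiomyocytes, 2.54 CPM in stromal and 1.10 CPM in epithelial cells. CALB2, which encodes the mesothelial calcium-binding protein calretinin, stood at 59.6 CPM against 2.73 CPM in stromal and 2.47 CPM in epithelial cells. SPRR2F, TM4SF1 and ANXA1 were also among the leading genes over cardiomyocytes. The leading genes lower than in stromal cells included LMO2, at 12.9 against 103 CPM, and the complement gene C7, at 25.6 against 174 CPM.

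Glycolysis genes were lower in the epicardial-like cells, with 16 of 17 measured lower than in cardiomyocytes, 10 lower than in stromal cells and 6 lower than in epithelial cells. None was higher in any of the 3 comparisons. Of all measured genes, 16.1%, 9.09% and 11.1% were lower in these comparisons. BNIP3, a mitophagy gene induced by hypoxia, stood at 133 CPM against 678, 298 and 242 CPM, and LDHA, lactate dehydrogenase, at 249 CPM against 993, 612 and 411 CPM. HOXB4, a gene of anterior-posterior position, stood at 51.7 CPM against 8.53 CPM in cardiomyocytes and 6.85 CPM in epithelial cells, but did not pass the limit against stromal cells, at 39.4 CPM, except in cells given to 1 hashtag (log2 0.72 in place of 0.39). Of the HOX and positional list, none of 8 was higher and 3 were lower than in stromal cells (6.53% and 9.09% of all measured genes).

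Cells with at least 3 genes of the G2M phase made up 57.7% of the thinned epicardial-like cells (52.7% to 62.6%; 96.3% unthinned), against 53.1% of cardiomyocytes, 61.2% of stromal and 73.3% of epithelial cells. Against cardiomyocytes, 23 of 50 G2M genes were higher and none lower, where 23.2% of all measured genes were higher. With trimmed mean (TMM) scaling, 10 of 49 were higher, where 1332 of all 9316 genes were. Without the 33 cells described above, 10 of 48 were higher, where 2107 of all 9318 genes were. Against epithelial cells, 25 of 52 were lower and none higher, where 11.1% of all genes were lower. MKI67, a marker of dividing cells, stood at 52.2 CPM against 28.0, 68.6 and 91.6 CPM, and was detected in 80 of the 408 cells. Its log2 ratio to cardiomyocytes was 0.55 in place of 0.90, short of the limit, without those 33 cells.

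**Figure D3:**
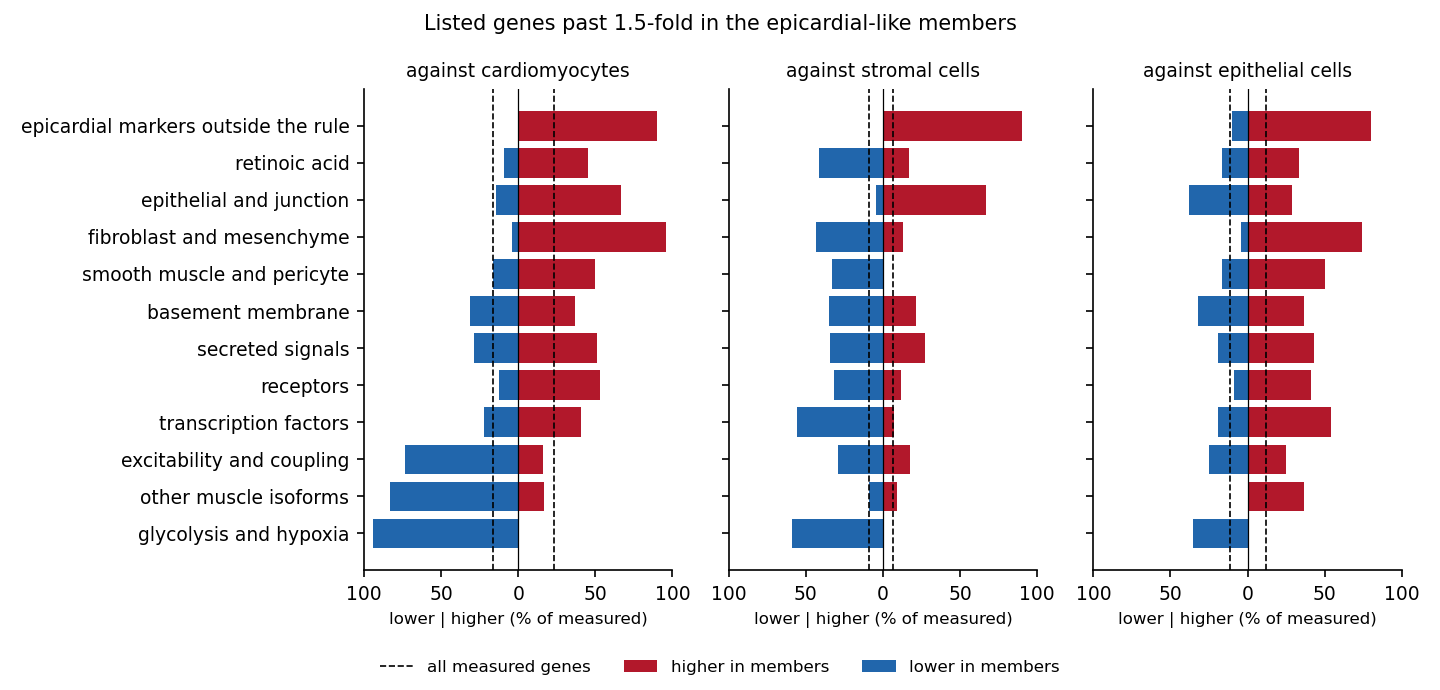
Share of measured genes of 12 lists that were at least 1.5-fold higher (right) or lower (left) in the epicardial-like cells, called members in the key, than in cardiomyocytes, stromal and epithelial cells, with dashed lines at the share over all measured genes. The bars of the epicardial markers reach past the dashed line on the higher side in all 3 panels and those of glycolysis genes on the lower side, while fibroblast genes were mostly higher than in cardiomyocytes (22 of 23) and more often lower than higher against stromal cells (10 and 3 of 23).

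Over all measured genes, 2168 were higher and 1506 lower than in cardiomyocytes, which with TMM scaling became 1332 higher and 2492 lower. The median log2 ratio was 0.11 by CPM and -0.19 by TMM, so ratios to cardiomyocytes near the limit depend on the scaling, while the ratios of TBX18, TCF21 and ALDH1A2 lie far from it. Against stromal cells the counts were 613 higher and 853 lower by CPM and 726 and 654 by TMM, and against epithelial cells 1116 higher and 1054 lower by CPM.

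The 408 cells were then described among themselves, by TCF21. At least 1 TCF21 UMI was found in 197 of them and none in 211, with median depths of 13744 and 12856 UMIs. Over all genes, 433 of 9191 (4.71%) were higher in the cells with TCF21 and 648 (7.05%) lower. TBX18 stood at 175 CPM in the cells with TCF21 and at 101 CPM in the others, 1.74-fold (1.51 to 2.01), and ALDH1A2 at 105 and 59.4 CPM. WT1, which helped to choose the cells, stood at 130 and 68.5 CPM, while BNC1 stood at 75.8 and 89.8 CPM. SOX9, a factor of progenitors of valve and cartilage, stood at 33.3 and 8.20 CPM, and TNC at 231 and 100.3 CPM. ACTA2 stood at 386 and 197 CPM, PDLIM3, a protein of actin filaments and Z-discs, at 165 and 48.2 CPM, and PLN at 249 and 104 CPM. Of the smooth muscle and pericyte list, 5 of 11 were higher with TCF21 and 1 lower.

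The cells without TCF21 held more LUM, the keratan sulphate proteoglycan lumican, at 260 against 104 CPM, and more HAPLN1, a link protein of hyaluronan matrix, at 66.2 against 6.32 CPM. HAPLN1 sat in 40 of the 408 cells. COL1A1 was alike, at 614 CPM with TCF21 and 559 CPM without. EPCAM stood at 20.6 CPM with TCF21 and 71.2 CPM without, and AFP at 4.32 and 151 CPM, of which 429 of 462 UMIs were in 1 cell. The 8 markers of WFDC2 and CLDN4 epithelium summed to 76.2 CPM with TCF21 and 235 CPM without. The epithelial and junction list, which holds the keratins, ran the other way in its sum, at 10123 CPM with TCF21 and 8804 CPM without. By gene, 1 of 22 measured in that list was higher with TCF21 and 8 were lower. Of 50 G2M genes, 29 were lower with TCF21 and none higher. Without the 33 cells described above, 12 of 50 were lower, where 637 of all 9154 measured genes were. In that setting none of 9 epicardial markers was higher with TCF21, in place of 4 of 9, where 364 of all 9154 genes were higher. Differences by TCF21 also shrank in the 261 cells with 5 or more rule UMIs, where the log2 ratio was 0.16 for TBX18, 0.30 for ALDH1A2, 0.50 for TNC and -0.14 for EPCAM, all short of the limit. The ratios of TBX18 (0.56) and ALDH1A2 (0.54) were also short of it without the 33 cells, and that of TBX18 with the mean of CPM over cells (0.50) and without ASPHD1 in the rule (0.58).

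Split by COL3A1, 318 of the 408 cells had at least 5 UMIs and 90 had fewer, with median depths of 14021.5 and 12625.5 UMIs. Over all genes, 1452 of 9237 (15.7%) were higher in the cells with more COL3A1 and 439 (4.75%) lower. LUM stood at 219 CPM in the cells with more COL3A1 against 10.3 CPM, POSTN at 34.7 against 3.74 CPM, on 173 and 4 UMIs, and HEY1, a factor downstream of Notch, at 45.1 against 5.60 CPM. GREM1, a BMP antagonist, had 101 UMIs against 0, at least 7.23-fold higher over the floor of 3 counts. Of 22 other fibroblast genes, 13 were higher and 1 lower. In the other direction, TNNT1 was 1.82-fold higher in the cells with little COL3A1 (1.67 to 1.98), at 665 against 366 CPM. HCN4 was 2.02-fold higher in them (1.52 to 2.66), at 70.1 against 34.7 CPM. The cells with little COL3A1 also held more RNA of the cardiomyocyte rule genes, at a sum of 5545 against 4878 CPM (medians per cell 4120 and 3223 CPM). Fewer of them could be given to 1 hashtag, 26.7% against 37.7%. HCN4 was highest in cardiomyocytes, and the part of cardiomyocyte RNA or of doublets in its ratio was not tested. TBX18 did not pass the limit, at 177 CPM with little COL3A1 and 129 CPM with more, nor did TCF21, at 141 and 116 CPM. Markers of endoderm moved with the split, at a sum of 60.2 CPM with more COL3A1 and 574 CPM with little, where AFP gave 411 CPM, from 440 UMIs of which 429 were in 1 cell. All 4 measured were lower with more COL3A1, though AFP was short of the limit with at least 5 rule UMIs (log2 -0.38 in place of -5.87) and without ASPHD1 in the rule (-0.54). Their part in the other differences was not tested.

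**Figure D4:**
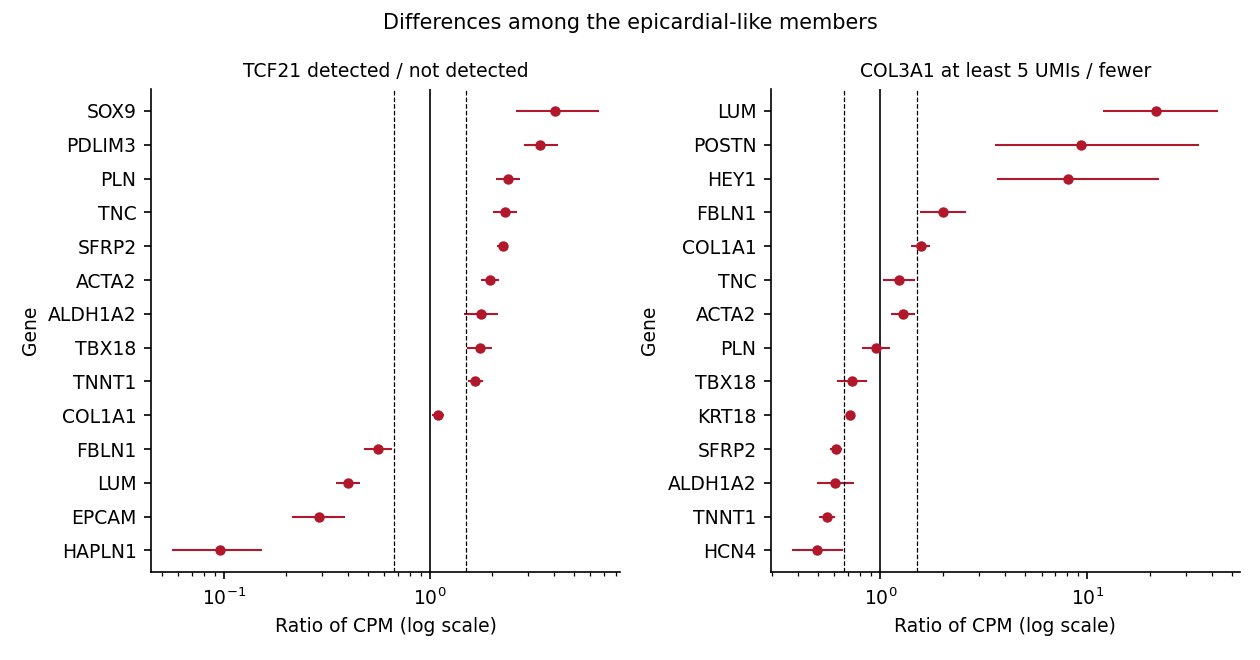
Ratios of CPM (log scale) with exact 95% intervals among the epicardial-like cells, on the left for cells with a TCF21 UMI over those without (197 and 211 cells), on the right for cells with at least 5 COL3A1 UMIs over those with fewer (318 and 90 cells); dashed lines mark 1.5-fold. ACTA2, PLN and PDLIM3 lie to the right and LUM and HAPLN1 to the left in the TCF21 split, while LUM, POSTN and HEY1 lie far to the right in the COL3A1 split.

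The labels do not say what the 13 hashtags mark, so they are unassigned samples and are given by their values. Cells were assigned to 1 hashtag when it made up 70% or more of their hashtag UMIs, of which 20 were required. The epicardial-like share ran from 0% to 3.96% of a hashtag's cells, with a median of 1.20%. It was highest in hashtag 1 (16 of 404 cells, 3.96%; 2.28% to 6.35%), hashtag 8 (27 of 746, 3.62%; 2.40% to 5.22%) and hashtag 5 (33 of 1262, 2.61%; 1.81% to 3.65%). When a hashtag had to make up 90% of the hashtag UMIs, hashtag 8 held 1 of 96 cells (1.04%; 0.0264% to 5.67%), hashtag 1 held 4 of 74 (5.41%), hashtag 2 held 5 of 150 (3.33%) and hashtag 5 held 12 of 408 (2.94%), so the order depends on the call. Hashtag 4 held 3 of 1009 (0.297%), hashtag 6 held 4 of 949 (0.421%), and hashtag 14 held 0 of 623 cells (0% to 0.590%). Hashtag 1 had 261 cells under the cardiomyocyte limit, of which 6.13% were epicardial-like, and hashtag 8 had 103, of which 26.2% were.

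**Figure D5:**
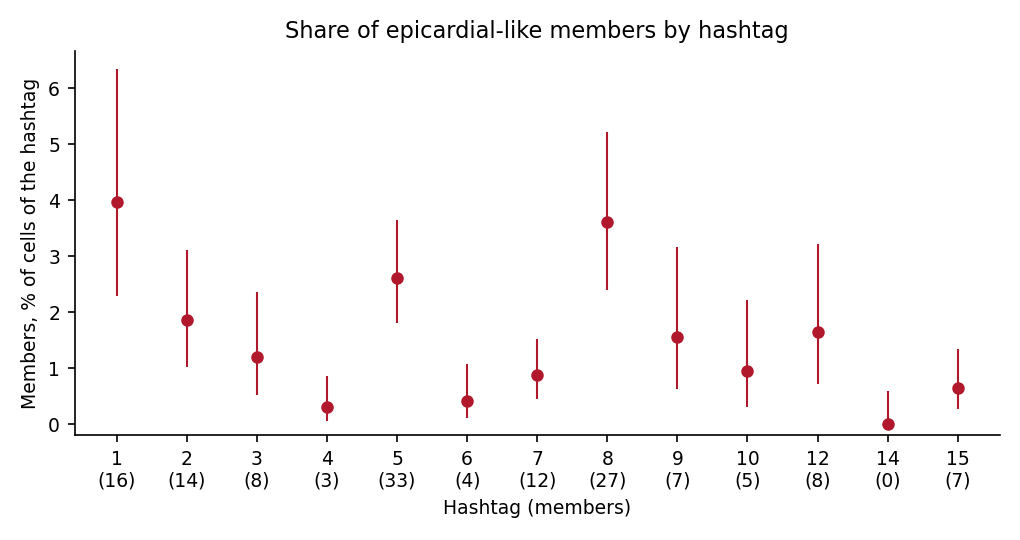
Epicardial-like cells as a percentage of the cells given to each of 13 hashtags, with exact 95% Clopper-Pearson intervals; the number of epicardial-like cells is in parentheses. Hashtags 1, 8 and 5 are highest, at 3.96%, 3.62% and 2.61%, and hashtag 14 has none.

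Only hashtags 5 and 8 had 20 or more epicardial-like cells, so gene levels are given for these. WT1 stood at 107 and 147 CPM in hashtags 5 and 8, TBX18 at 161 and 192 CPM, and TCF21 at 133 and 192 CPM. ALDH1A2 stood at 74.6 and 159 CPM. TNNT1 stood at 474 and 615 CPM, and HCN4 at 42.4 and 47.3 CPM. The markers were thus present in the cells of both hashtags. COL1A1 stood at 990.2 and 485 CPM and SFRP2 at 373 and 1047 CPM, so these genes ran in opposite directions between the hashtags. MKI67 stood at 4.03 CPM (0.488 to 14.6) and 64.7 CPM (42.3 to 94.8), on only 2 and 26 UMIs. AFP had no UMI in the cells of hashtag 5 and stood at 4.98 CPM, on 2 UMIs, in those of hashtag 8.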

How the data were processed

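Thawed H9-derived day 15 cells were stained with hashtag antibodies and pooled, and a gene expression and a hashtag library were sequenced, per the labels' protocols. The raw counts (UMIs) were deposited as 1 matrix of 36601 genes and 13 hashtags in 24038 barcodes, made with Cell Ranger 4.0.0 per the file headers and with hg38 per the submitters' processing notes. For alignment settings, annotation release and cell calling, the method is not given in the sources used here. Gene UMIs numbered 311110726 and hashtag UMIs 9911316.

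The quality filter required 500 genes, 1000 UMIs and no more than 25% mitochondrial UMIs, and 2415 barcodes failed it. Levels are CPM of the UMIs summed over a group. A gene was measured with at least 10 CPM and 10 counts on the higher side and called from a ratio of 1.5, and the 17 rule genes were left out of counts. Intervals at 95% were Clopper-Pearson for shares, exact Poisson for levels and exact conditional binomial for ratios (Python 3.11.15, numpy 2.4.6, scipy 1.17.1, pandas 2.3.3). They treat UMIs as independent and cover counting error only. A gene with 0 counts was set against a floor of 3 counts over the group. The ratio calculation was tested on simulated data. No doublet caller was run. Barcodes that may hold more than 1 cell were described by their hashtags and by the markers of other cell types.

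The rule for members, the 29 lists of 562 genes and the rule for named genes were chosen with earlier results of these data known. In each comparison with another group, named genes were a fixed set of markers, the 4 genes or fewer of each list with the highest ratios, and the 8 leading protein-coding genes a side outside the lists at 50 CPM or more. In the 2 comparisons among members these were at most 2 per list and 5 a side. A gene so named in 1 comparison is also given in the others, and not every gene so named is printed. Some genes are not reported here. SLC9A3R1, WT1-AS and TARID, which are in no list, and the list members NPHS1, PAX2, PAX8, NR5A1, LHX9, CDH5, PECAM1, SOX10, CRABP2, EMX2, MSLN, PRG4, CDH3, PARD6B and KRT7 were named after their values were seen. Gene positions are from GENCODE 29, which held 34616 of the gene identifiers, and start sites from RefSeq. Alternatives were other scalings, thresholds, filters, rules for members, and leaving out each hashtag.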

Additional observations from a re-analysis of the deposited data

How the results depend on the processing

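The number of epicardial-like cells was 261 with at least 5 rule UMIs and 144 among cells given to 1 hashtag. Genes higher and lower than in cardiomyocytes numbered 1332 and 2492 with TMM scaling, 698 and 671 at 50 CPM or more, 6274 and 3382 with no CPM minimum, and 1140 and 793 at 2-fold. Against stromal cells the same 3 thresholds gave 219 and 226, 1388 and 2427, and 314 and 272, and against epithelial cells 359 and 250, 2111 and 2727, and 621 and 454. By TCF21 they gave 123 and 98, 979 and 1369, and 86 and 201, with 917 and 1595 in cells given to 1 hashtag. By COL3A1 they gave 225 and 70, 2863 higher, and 527 and 95, with 2270 higher in cells given to 1 hashtag. Fewer or more genes and cells enter by construction. The median hashtag share was 0.983% when a hashtag had to hold 90% of a cell's hashtag UMIs.

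The log2 ratio of AFP to cardiomyocytes and to stromal cells reversed to -2.37 and -1.63 with at least 5 rule UMIs, -1.80 and -1.04 without ASPHD1 in the rule, -2.23 and -1.53 without the cells with epithelial or endoderm genes (chosen after seeing the data), and -1.87 and -1.20 without hashtag 7. Leaving out each hashtag in turn gave 375 to 408 cells and changed no count by more than 1.5 times.

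No paired analysis was possible because there is 1 pool and the hashtags have no group. Depth limits genes near 10 CPM, and the small groups give wide intervals.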

Other observations

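Metallothionein genes, which bind zinc and copper, were far lower in the epicardial-like cells than in epithelial cells. MT1M had no UMI in them against 714 in epithelial cells, at least 132-fold lower over the floor of 3 counts, and MT1E stood at 103 against 1251 CPM. KLF2, a factor induced by fluid flow in endothelium, stood at 74.1 against 2.92 CPM in epithelial cells. Among the epicardial-like cells, those with a TCF21 UMI held more RSPO2, an enhancer of WNT signalling, at 51.9 against 19.3 CPM, and more SCN3B, a sodium channel subunit, at 50.9 against 20.7 CPM.

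SST, the somatostatin gene, had 385 UMIs in 21 of the 408 cells, and 312 of these were in 5 cells. LHX9, a factor of the developing gonad, had 23 UMIs in 19 cells, which is 52.3% of its UMIs in the filtered library, while the other gonadal factor NR5A1 was at 0.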
